A study of Ovis aries with 36 samples.

Results

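Potassium, calcium and sodium channels and the TRP (transient receptor potential) cation channels were followed in cultured sheep cells labelled as ruminal epithelial cells. Such cells line the forestomach and absorb the volatile fatty acids (VFAs) made by rumen microbes. The channel genes were taken by symbol: KCN genes, CACNA and CACNB genes, SCN and SCNN1 genes, and the TRPC, TRPM and TRPV genes. The pattern matched 149 of the 35223 genes in the count table, and all 149 were annotated as protein coding. It also took in 3 genes that do not encode a channel subunit, TRPC4AP, TRPC5OS and KCNRG, which are kept apart in the account by family.

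The cells were grown in a Grain or a Hay medium that imitated the rumen VFAs of sheep on each diet. Grain medium held 71.1 mM acetate, 20.1 mM propionate, 16.0 mM butyrate, 5.3 mM isovalerate, 1.7 mM valerate and 1.1 mM isobutyrate, with a stated VFA total of 115.78 mM. Hay medium held 60.8 mM acetate, 14.6 mM propionate, 9.2 mM butyrate, 3.0 mM isovalerate, 1.2 mM valerate and 1.0 mM isobutyrate, with a stated total of 89.79 mM. All cells had been kept for 2 h in serum-free DMEM/F12 with 100 nM dexamethasone, a glucocorticoid that brings cellular clocks into step, and both media were set to pH 7.2 with bicarbonate. Acetate, propionate and butyrate came as sodium salts, and the sodium content of the finished media is not stated. Treatment with either medium lasted 24 h in the labels. Cells were taken at 24 h (T0), 28, 32, 36, 40 and 44 h (T20), and the labels do not state clearly from which event these hours count. The 6 time points had 3 libraries in each medium, 18 per medium and 36 in all. No cells free of added VFAs entered the comparisons.

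Ion channels set the membrane potential and carry sodium, potassium, calcium and magnesium across the cell membrane. In the rumen, sodium and magnesium uptake and ammonium exchange go in part through cation-permeable channels of the luminal membrane, for which TRPV3, TRPV4, TRPM6 and TRPM7 have been proposed in ruminants, and potassium channels supply the negative cell potential that drives this uptake. Many of the other channels are best known from nerve and muscle.

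Total counts ranged, in units of 1e6, from 52.4 to 65.3 per library in Grain (mean 60.3 ± 3.82, SD, n = 18) and from 55.1 to 68.1 in Hay (61.4 ± 3.17, SD, n = 18). The channel genes took 0.1% ± 0.00577 of the raw counts in Grain and 0.113% ± 0.00362 in Hay (SD, n = 18 each). These shares are not scaled, unlike the levels below. The TMM scaling factors ran from 0.859 to 1.055 in Grain and from 0.982 to 1.088 in Hay, and were lowest at T12 in both media. Whether replicate libraries stem from separate cultures is not in the labels, so p-values measure the spread between these libraries, which may be technical. Levels are CPM, read counts scaled to library size by TMM, and are not corrected for gene length, so they compare a gene between samples and not genes with each other. In bulk RNA, fewer cells of a type and less RNA per cell cannot be told apart. The label of epithelial cells was checked against markers. Basal keratinocyte genes were present, with KRT14 at a mean of 205 CPM in Grain and 119 CPM in Hay. Of the differentiated keratinocyte genes, KRT4 and CNFN averaged under 20 counts in both media. Others on that list were detected, with KRT13 at a mean of 10.5 CPM in Grain and 19.2 CPM in Hay. The whole list summed to 28.2 to 48.8 CPM in Grain and 41.8 to 51.1 CPM in Hay. Fibroblast genes were present at far higher CPM: VIM averaged 13167 CPM in Grain and 6375 CPM in Hay, and COL1A2 averaged 3961 CPM in Grain and 6473 CPM in Hay. Fibroblast markers summed to 20190 to 33690 CPM in Grain and 17840 to 24980 CPM in Hay. Basal keratinocyte markers summed to 722 to 1528 CPM in Grain and 767 to 959 CPM in Hay. For simple epithelium the sums were 149 to 233 CPM in Grain and 261 to 312 CPM in Hay. Whether the cultures mixed cell types was not tested.

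Low counts limited many channel genes. Of the 149, 15 did not pass the filter for testing: CACNA2D4, KCNA10, KCNE5, KCNF1, KCNH8, KCNK16, KCNK4, KCNMB2, KCNRG, KCNU1, KCNV2, TRPC5OS, TRPC6, TRPC7 and TRPM5. A further 18 passed but averaged under 20 counts in both media, which makes 33 low-count genes in all. A gene can pass the filter through the medium in which it is higher, so shares of the 134 tested genes are given as descriptions beside the same share of all 22488 genes tested. The library kit does not keep strand, and 52 of the 149 overlap another annotated gene, 47 of them tested, so their reads may include those of the neighbour.

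Averaged over the 6 time points, 40 channel genes were higher in Grain, 70 were lower, and 24 did not pass (edgeR quasi-likelihood test, Benjamini-Hochberg adjusted p under 0.05). The 110 called genes were 82.1% of those tested, against 81.8% of all genes tested, so being called was no more frequent than in the background. The higher genes were 29.9% of the tested channel genes, against 37.9% of all genes, and the lower genes were 52.2%, against 43.9% of all genes. At a change of at least 2-fold, 26 were called (19.4%, against 21.7%): only TRPV2 and SCNN1A were higher (1.49%, against 5.7%), and 24 were lower (17.9%, against 16%). The median log2 fold change of Grain over Hay was -0.26 for the tested channel genes and -0.07 for all tested genes. Channel genes had few counts, with a median mean count of 107, against 352 for all tested genes, and low-count genes were more often lower in Grain throughout the table. Under 100 counts, 52.5% of the channel genes and 49.3% of all genes were lower, and between 100 and 1000 counts 49.1% and 46.3% were lower. The higher shares were 19.7% and 16.8% under 100 counts, and 41.5% and 40.7% between 100 and 1000. Below 1000 counts, higher calls were thus no less frequent in channel genes than in all genes. Over 1000 counts, 12 of 20 channel genes were lower (60%, against 36.6% of all genes of that depth) and 6 were higher (30%, against 56.5%). Of the 24 genes at least 2-fold lower, 18 had under 100 counts. Within each depth such falls were no more frequent than in all genes. The shares were 29.5% against 32.2% under 100 counts, 11.3% against 12% between 100 and 1000, and 0% against 3.24% over 1000. Among the 116 channel genes without a low-count mark, 39 were higher and 63 lower, and among the 87 that overlap no other gene, 28 were higher and 40 lower.

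**Figure D1:**
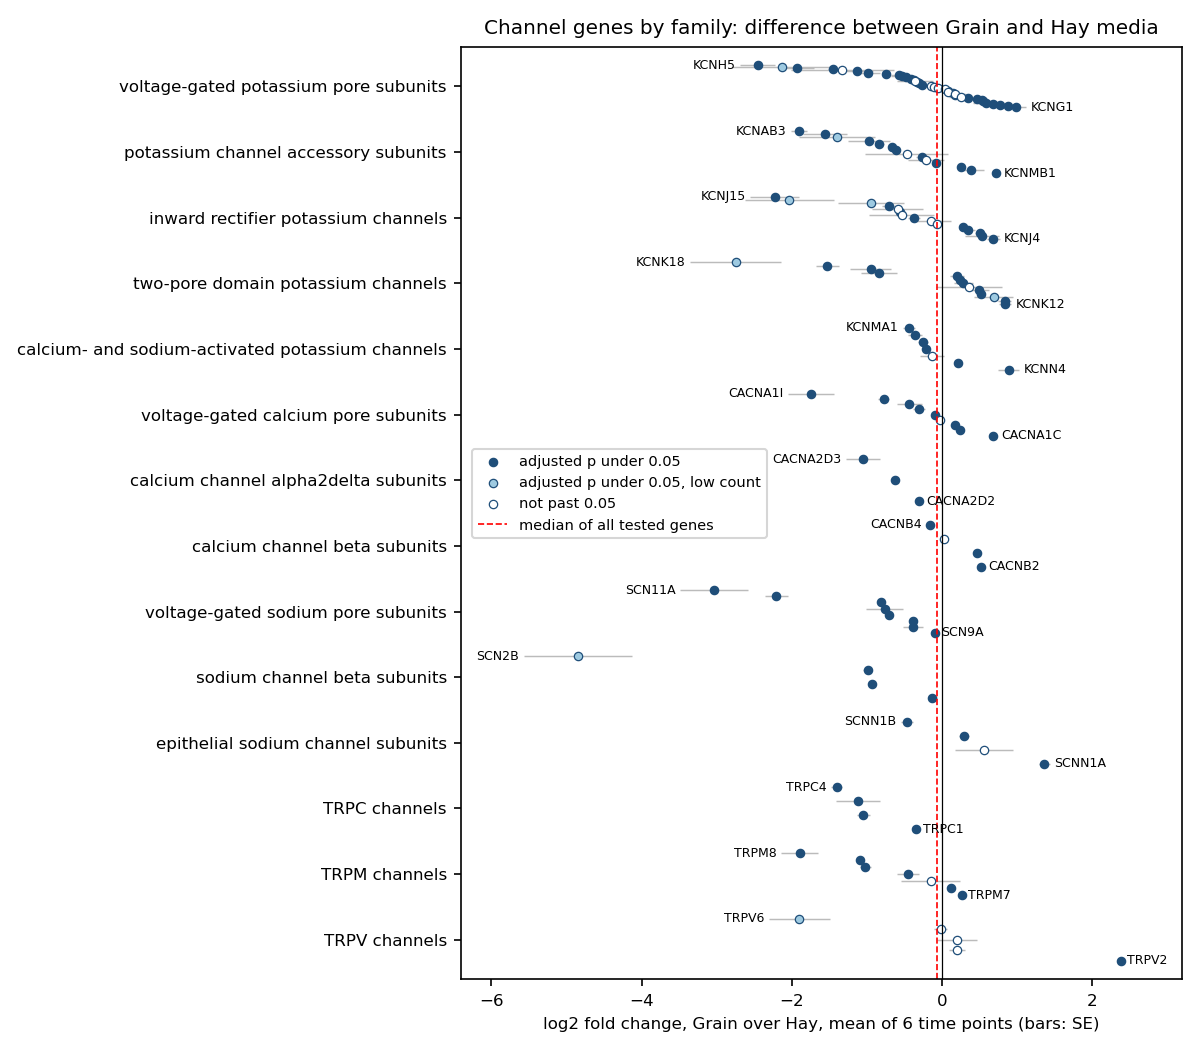
Log2 fold change of Grain over Hay for each tested channel gene (points, bars are SE of the fit over 18 libraries per medium), arranged by family, with the median of all tested genes as a dashed line. All tested voltage-gated sodium, sodium channel beta and TRPC genes lie left of 0, and TRPV2 lies farthest right at 2.38. The beta gene SCN2B passed the filter through its Hay libraries alone.

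Libraries of the media separated fully for 23 channel genes. All 18 Grain libraries lay above all 18 Hay libraries for 4 of them, with KCNH2, SCNN1A and TRPV2 among them, where 15.4% of all tested genes did so and 2.99% of the tested channel genes. That comparison was not matched for depth. All 18 Grain libraries lay below all 18 Hay libraries for 19, or 14.2%, against 11.9% of all tested genes. These were CACNA1D, KCNA5, KCNAB1, KCNAB3, KCND2, KCNH5, KCNH7, KCNIP1, KCNJ2, KCNMB4, SCN1A, SCN2A, SCN4B, SCN7A, SCN8A, TRPC1, TRPC4, TRPC4AP and TRPM6.

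Subunits of the epithelial sodium channel, which takes up sodium at the luminal membrane of tight epithelia, moved apart. Of the 4 subunit genes, SCNN1A and SCNN1G rose in Grain, SCNN1B fell, and SCNN1D, with 10 counts in Grain and 8 in Hay, did not pass. SCNN1A encodes the alpha subunit, which the channel needs to conduct. Its level was lowest at 3.21, median 4.37 and highest 5.49 CPM in Grain, against 1.11, 1.70 and 2.25 CPM in Hay. No Grain library reached down to the Hay range. The mean was 2.58-fold higher in Grain (log2 1.37 ± 0.07 SE, adjusted p = 1.99e-19), and the log2 difference at single time points ran from 1.25 to 1.51, with no detected dependence on time (adjusted p = 0.94). SCNN1G, the gamma subunit, averaged 4.09 ± 0.669 CPM in Grain and 3.31 ± 0.476 CPM in Hay (SD, n = 18 each; log2 0.30 ± 0.07 SE, adjusted p = 9.26e-05), with overlapping libraries. SCNN1B, the beta subunit, averaged 1.46 ± 0.413 CPM in Grain and 1.99 ± 0.375 CPM in Hay (log2 -0.47 ± 0.08 SE, adjusted p = 2.55e-06), also with overlap.

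All 8 tested voltage-gated sodium pore genes were lower in Grain, with a median log2 fold change of -0.73, and so were all 4 sodium channel beta genes, with a median of -0.96. Of all genes tested, 43.9% were lower. SCN11A and SCN2B had few counts in Grain. SCN2B passed the filter through its Hay libraries alone, so its lower call adds no support to the family count. In neurons and muscle the pore subunits carry the rising phase of the action potential, and the beta subunits tune their gating and act in cell adhesion. SCN1A ran from 38.0 over a median of 45.6 to 53.3 CPM in Grain, against 53.5, 60.8 and 64.6 CPM in Hay. The libraries of the media just failed to meet, and the fitted log2 fold change was -0.39 ± 0.02 SE (adjusted p = 8.06e-20). SCN8A, whose product supports repetitive firing, ran from 9.23 over 12.1 to 14.1 CPM in Grain, against 16.4, 19.4 and 20.7 CPM in Hay, a wider gap (log2 -0.70 ± 0.03 SE, adjusted p = 7.65e-22). It overlaps TMDD1, which did not pass (adjusted p = 0.467). SCN2A averaged 5.69 ± 0.979 CPM in Grain and 9.89 ± 0.974 CPM in Hay (SD, n = 18 each; log2 -0.81 ± 0.05 SE, adjusted p = 2.92e-17). SCN9A, known for its part in pain signalling, moved least: 80.1, 92.3 and 109 CPM in Grain were its lowest, median and highest values, against 90.1, 97.9 and 103 CPM in Hay. Its ranges overlapped almost wholly, and the mean difference was small (log2 -0.09 ± 0.02 SE, adjusted p = 7.99e-06).

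SCN7A fell further. It encodes an atypical family member that senses extracellular sodium in rodents. It ran from 0 over 0.354 to 0.615 CPM in Grain, against 0.725, 1.52 and 2.34 CPM in Hay, and all Grain libraries lay lower. The mean was 4.61-fold higher in Hay (log2 of Grain over Hay -2.20 ± 0.16 SE, adjusted p = 1.46e-15), from mean counts of 20 in Grain and 101 in Hay. SCN4A, the skeletal muscle pore, averaged 14 counts in Grain and 26 in Hay, and SCN11A averaged 4.06 counts in Grain and 21.6 in Hay. Of the beta subunits, SCN4B averaged 2.46 ± 0.574 CPM in Grain and 4.81 ± 0.437 CPM in Hay (log2 -0.99 ± 0.06 SE, adjusted p = 1.89e-18), with no overlap of the libraries. SCN3B averaged 4.79 ± 1.07 CPM in Grain and 9.00 ± 1.42 CPM in Hay (log2 -0.93 ± 0.05 SE, adjusted p = 2.54e-18), with overlap at the edges. SCN2B averaged 0.667 counts in Grain and 9.89 counts in Hay, too few for a fold.

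Markers of nerve-related cells were set beside the sodium channels, with 37.9% of all genes tested higher in Grain and 43.9% lower. Of 9 tested neuron and neuroendocrine markers, 4 were higher and 3 lower in Grain, and their summed level overlapped between the media, at 165 to 205 CPM in Grain and 160 to 226 CPM in Hay. Of 4 tested glia markers, none was higher and 2, with S100B among them, were lower. Their sum was 12.3 to 21.0 CPM in Grain and 25.0 to 45.1 CPM in Hay, most of it S100B, while SOX10 and CDH19 averaged under 20 counts in both media. Their part in the sodium channel differences was not tested.

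**Figure D2:**
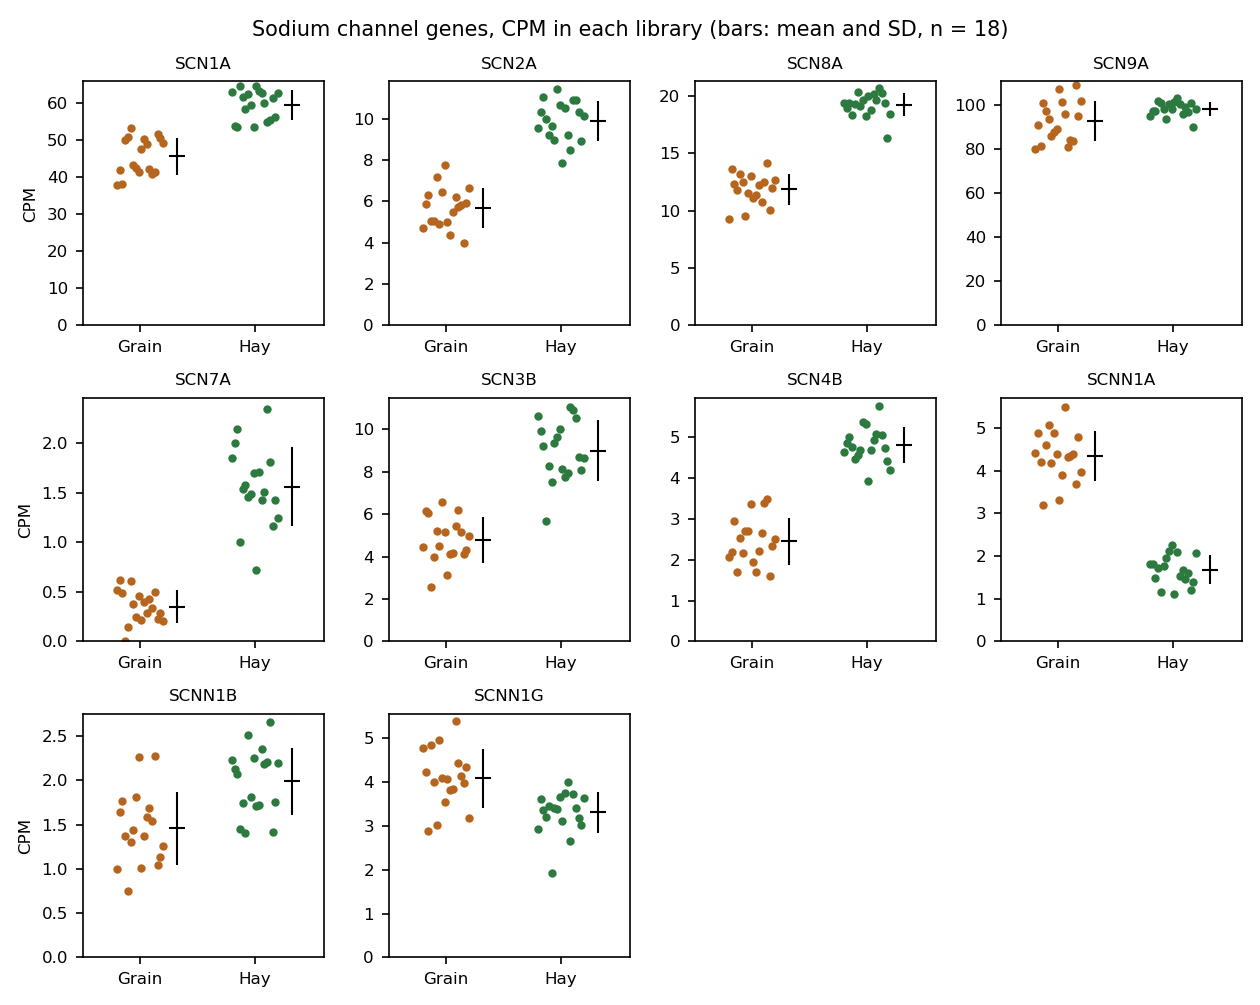
CPM (vertical axis) of 10 sodium channel genes in each of the 18 Grain and 18 Hay libraries (points), with mean and SD at the side. SCNN1A is higher in every Grain library, SCN1A, SCN2A, SCN7A, SCN8A and SCN4B are lower in every Grain library, and SCN9A overlaps.

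Of the TRP channels, all 4 tested TRPC genes were lower in Grain, beside 43.9% of all genes tested, whereas TRPM and TRPV genes were mixed. TRPV2, a calcium-permeable channel opened by heat, stretch and cannabinoids, was the channel gene with the largest rise. It ran from 43.7 over 49.7 to 61.3 CPM in Grain, against 8.53, 9.75 and 11.9 CPM in Hay, so that the lowest Grain library stood far above the highest Hay library. The mean was 5.21-fold higher in Grain (log2 2.38 ± 0.03 SE, adjusted p = 9.46e-40). It overlaps LRRC75A, which also rose (log2 1.41, adjusted p = 2.22e-26) with mean counts of 545 in Grain and 223 in Hay, fewer than the 2928 and 625 of TRPV2. The other TRPV genes did not follow. TRPV3, opened by warmth and proposed for rumen cation and ammonium uptake, ran from 0.807 over 1.41 to 2.18 CPM in Grain, against 0.816, 1.26 and 1.68 CPM in Hay. Those ranges overlapped and the difference did not pass (log2 0.21, 95% interval -0.01 to 0.43, adjusted p = 0.0689). TRPV4, which responds to osmotic swelling, averaged 1.73 ± 0.242 CPM in Grain and 1.75 ± 0.293 CPM in Hay (log2 -0.02, 95% interval -0.19 to 0.16, adjusted p = 0.867). TRPV1, with 17 counts in each medium, did not pass. TRPV6, a calcium-selective channel, was called lower with 3.89 counts in Grain and 15.4 in Hay.

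TRPM6 and TRPM7, magnesium-permeable channels fused to a kinase, moved in opposite directions. TRPM6 ran from 2.67 over 3.55 to 4.94 CPM in Grain, against 6.22, 7.37 and 9.90 CPM in Hay. The ranges did not meet, and the mean was 2.12-fold higher in Hay (log2 of Grain over Hay -1.08 ± 0.05 SE, adjusted p = 7.4e-22). TRPM7 ran from 90.2 over 97.6 to 109 CPM in Grain, against 74.9, 81.6 and 90.3 CPM in Hay, with contact only at the edge of the ranges. It was 1.21-fold higher in Grain (log2 0.27 ± 0.02 SE, adjusted p = 1.53e-16) and was called higher at all 6 time points. TRPM2, a calcium-permeable channel opened under oxidative stress, averaged 1.10 ± 0.251 CPM in Grain and 2.21 ± 0.275 CPM in Hay (log2 -1.02 ± 0.07 SE, adjusted p = 1.99e-15). TRPM8, the cold and menthol receptor, was lower at a low level, with 10 counts in Grain and 37 in Hay. TRPM4, a calcium-activated sodium and potassium channel, was barely higher (log2 0.12 ± 0.05 SE, adjusted p = 0.0368), and the call was lost with DESeq2.

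The TRPC channels open after receptor activation of phospholipase C, and their genes had a median log2 fold change of -1.08 over the 4 tested. TRPC1 ran from 18.0 over 20.8 to 23.5 CPM in Grain, against 24.0, 26.4 and 28.4 CPM in Hay. The libraries did not overlap, though the fall was modest (log2 -0.34 ± 0.02 SE, adjusted p = 7.34e-16). TRPC4 ran from 0.976 over 1.41 to 1.74 CPM in Grain, against 2.53, 3.71 and 5.08 CPM in Hay, again without overlap (log2 -1.40 ± 0.07 SE, adjusted p = 1.35e-19). TRPC5, with 12 counts in Grain and 24 in Hay, overlaps TRPC5OS. TRPC4AP, an adaptor of a ubiquitin ligase and not a channel, averaged 55.4 ± 2.83 CPM in Grain and 68.3 ± 2.79 CPM in Hay (log2 -0.30 ± 0.02 SE, adjusted p = 1.65e-19).

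**Figure D3:**
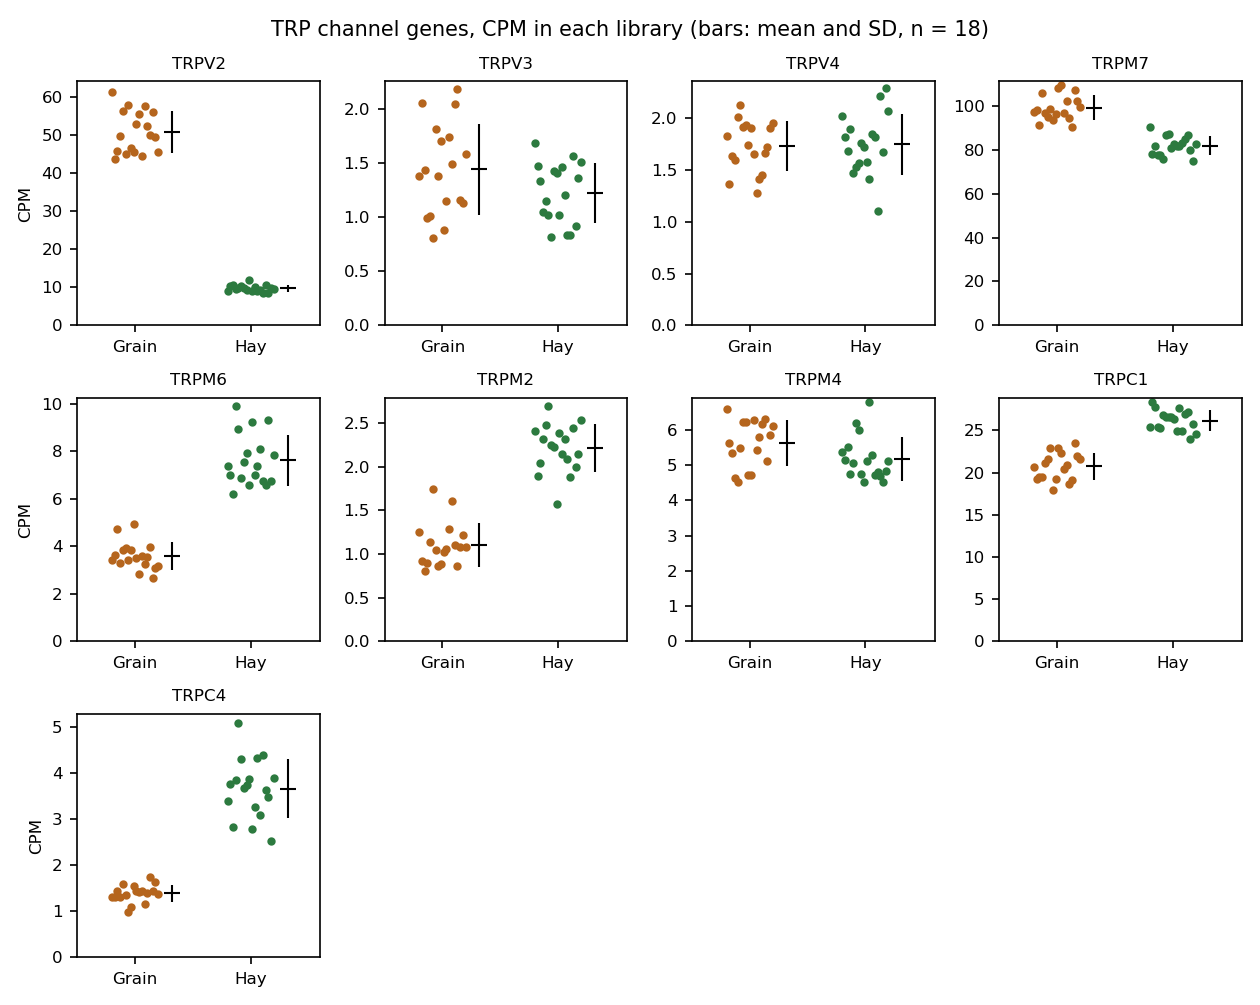
CPM (vertical axis) of 9 TRP channel genes in each of the 18 Grain and 18 Hay libraries (points), with mean and SD at the side. TRPV2 is far higher in Grain, TRPM6, TRPC1 and TRPC4 are lower in every Grain library, and TRPV3 and TRPV4 overlap.

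Voltage-gated calcium channels consist of a pore subunit with alpha2delta and beta subunits that bring it to the membrane and adjust its gating. Of 9 tested pore genes, 3 were higher, 5 lower and 1 did not pass, beside 37.9% higher and 43.9% lower among all genes tested. The L-type genes did not move together: CACNA1C was higher, whereas CACNA1D, CACNA1F and CACNA1S were lower. The call of CACNA1F was lost without the T12 libraries. CACNA1C, the L-type pore of heart and smooth muscle, averaged 4.67 ± 1.25 CPM in Grain and 2.86 ± 0.556 CPM in Hay (SD, n = 18 each; log2 0.68 ± 0.05 SE, adjusted p = 3.81e-14). It overlaps DCP1B, which rose as well (log2 0.45), with mean counts of 208 in Grain and 169 in Hay, beside 268 and 182 for CACNA1C. CACNA1D, the L-type pore of endocrine and pacemaker cells, averaged 1.93 ± 0.338 CPM in Grain and 3.30 ± 0.47 CPM in Hay (log2 -0.78 ± 0.07 SE, adjusted p = 1.37e-12). It overlaps DCP1A, which had far more counts, 3376 in Grain and 3019 in Hay, and rose (log2 0.31). CACNA1G, a T-type pore that opens at low voltage, ran from 46.7 over 51.9 to 59.5 CPM in Grain, against 46.0, 54.7 and 58.1 CPM in Hay. It did not pass (log2 -0.03, 95% interval -0.08 to 0.02, adjusted p = 0.287), though DESeq2 called it lower at -0.06.

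All 3 tested alpha2delta genes were lower, beside 43.9% of all genes tested. CACNA2D1, whose product binds gabapentin, ran from 18.6 over 28.2 to 49.0 CPM in Grain, against 39.7, 43.7 and 51.8 CPM in Hay (log2 -0.63 ± 0.02 SE, adjusted p = 3e-23). The wide Grain range followed the time of harvest. CACNA2D2 averaged 8.22 ± 0.94 CPM in Grain and 10.2 ± 1.15 CPM in Hay (log2 -0.31 ± 0.04 SE, adjusted p = 4.82e-09). CACNA2D3 had 14 counts in Grain and 31 in Hay. Of the 4 beta genes, CACNB1 and CACNB2 were higher, CACNB4 was lower, and CACNB3 did not pass (log2 0.03, 95% interval -0.01 to 0.07, adjusted p = 0.163). CACNB1 averaged 6.63 ± 0.875 CPM in Grain and 4.79 ± 0.69 CPM in Hay (log2 0.47 ± 0.05 SE, adjusted p = 6.77e-11). CACNB2 averaged 6.85 ± 0.933 CPM in Grain and 4.8 ± 0.729 CPM in Hay (log2 0.52 ± 0.04 SE, adjusted p = 1.41e-13), and overlaps NSUN6, which rose too (log2 0.66), with 4983 counts in Grain and 3511 in Hay.

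Potassium channels supplied the largest group. Of 36 tested voltage-gated pore genes, 12 were higher, 15 lower and 9 did not pass, with a median log2 fold change of -0.12. That split was near the shares of all genes tested, 37.9% higher and 43.9% lower. KCNH2, the pore of the rapid cardiac delayed rectifier, ran from 4.82 over 5.39 to 6.68 CPM in Grain, against 2.54, 2.88 and 4.03 CPM in Hay (log2 0.88 ± 0.05 SE, adjusted p = 8.15e-20). Each Grain library lay above each Hay library. KCNG1, an electrically silent subunit that joins KCNB channels, was 1.98-fold higher in Grain (adjusted p = 2.22e-08), with 66 counts in Grain and 37 in Hay. KCNA5, an ultrarapid delayed rectifier of the atrium, went the other way: 1.42, 2.36 and 4.36 CPM in Grain were its lowest, median and highest values, against 5.05, 7.03 and 8.64 CPM in Hay. Its libraries did not overlap, and the mean was 2.74-fold higher in Hay (log2 of Grain over Hay -1.45 ± 0.06 SE, adjusted p = 9.09e-23). KCNH7, an ERG-type channel, averaged 34.6 ± 3.21 CPM in Grain and 44.7 ± 2.49 CPM in Hay (log2 -0.38 ± 0.02 SE, adjusted p = 2.86e-19). It overlaps GCA, which fell (log2 -0.71) with 10690 counts in Grain and 19360 in Hay, against 2005 and 2871 for KCNH7.

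Of 14 tested accessory potassium channel genes, 3 were higher, 9 lower and 2 did not pass, beside 37.9% higher and 43.9% lower among all genes tested. The KCNAB genes encode cytoplasmic beta subunits with an aldo-keto reductase fold, and all 3 were lower. KCNAB3 ran from 0.265 over 0.705 to 1.31 CPM in Grain, against 1.97, 2.62 and 3.41 CPM in Hay, without overlap (log2 -1.90 ± 0.10 SE, adjusted p = 4.7e-19). KCNAB1 averaged 16.1 ± 2.12 CPM in Grain and 24.7 ± 2.84 CPM in Hay (log2 -0.61), and KCNAB2 averaged 52 ± 2.2 CPM in Grain and 54.8 ± 1.90 CPM in Hay (log2 -0.08 ± 0.02 SE, adjusted p = 0.000116). Among the partners of the large-conductance calcium-activated channel, KCNMB1, the smooth muscle beta subunit, averaged 11.8 ± 4.27 CPM in Grain and 7.21 ± 2.78 CPM in Hay (log2 0.72 ± 0.04 SE, adjusted p = 2.14e-17). KCNMB4, a beta subunit known from brain, ran from 19.4 over 23.6 to 26.9 CPM in Grain, against 31.3, 36.3 and 42.8 CPM in Hay, without overlap (log2 -0.67 ± 0.03 SE, adjusted p = 4.57e-23). The pore gene KCNMA1 averaged 1.43 ± 0.321 CPM in Grain and 1.91 ± 0.323 CPM in Hay (log2 -0.43 ± 0.08 SE, adjusted p = 4.37e-06). KCNMB1 overlaps KCNIP1, which fell (log2 -0.83).

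Of 7 tested calcium- and sodium-activated potassium channel genes, 2 were higher, 4 lower and 1 did not pass. Among all genes tested, 37.9% were higher and 43.9% lower. KCNN3, a small-conductance channel gated by calmodulin, averaged 15.3 ± 3.13 CPM in Grain and 17.4 ± 2.38 CPM in Hay (log2 -0.21 ± 0.03 SE, adjusted p = 1.86e-07). KCNN4, the intermediate-conductance channel of epithelia and blood cells, averaged 0.862 ± 0.252 CPM in Grain and 0.466 ± 0.144 CPM in Hay (log2 0.89 ± 0.14 SE, adjusted p = 6.57e-07). It is named as a gene of epithelia, after its values were seen. The 15 inward rectifiers, which hold the resting potential, divided into 5 higher, 6 lower and 4 that did not pass, a split near those shares. KCNJ2 ran from 14.4 over 16.0 to 17.8 CPM in Grain, against 21.7, 23.6 and 26.3 CPM in Hay, without overlap (log2 -0.56 ± 0.03 SE, adjusted p = 6.89e-21). KCNJ10, a rectifier of glia and transporting epithelia, averaged 18.9 ± 1.82 CPM in Grain and 15.5 ± 1.11 CPM in Hay (log2 0.28 ± 0.03 SE, adjusted p = 5.95e-10).

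Of 13 tested tandem pore domain (KCNK) genes, whose channels carry background potassium current, 8 were higher, 4 lower and 1 did not pass. Their median log2 fold change was 0.29, against -0.07 for all tested genes, of which 37.9% were higher and 43.9% lower. KCNK12 averaged 2.89 ± 0.455 CPM in Grain and 1.63 ± 0.397 CPM in Hay (log2 0.84 ± 0.08 SE, adjusted p = 9.81e-12). KCNK9, an acid-sensitive channel, averaged 2.32 ± 0.432 CPM in Grain and 1.31 ± 0.239 CPM in Hay (log2 0.84 ± 0.09 SE, adjusted p = 7.07e-11). KCNK6, a weak inward rectifier of the group, averaged 6.98 ± 1.19 CPM in Grain and 4.83 ± 0.685 CPM in Hay (log2 0.52 ± 0.05 SE, adjusted p = 1.16e-11). KCNK2, a stretch-activated channel, was the main exception: 0.0888, 0.455 and 1.02 CPM in Grain were its lowest, median and highest values, against 0.910, 1.25 and 1.96 CPM in Hay. Its ranges overlapped only at their edges (log2 -1.53 ± 0.16 SE, adjusted p = 3.36e-11), at mean counts of 27 in Grain and 81 in Hay. The calls of KCNK5 and KCNK15, both weakly higher, were lost with DESeq2 and without the T12 libraries.

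**Figure D4:**
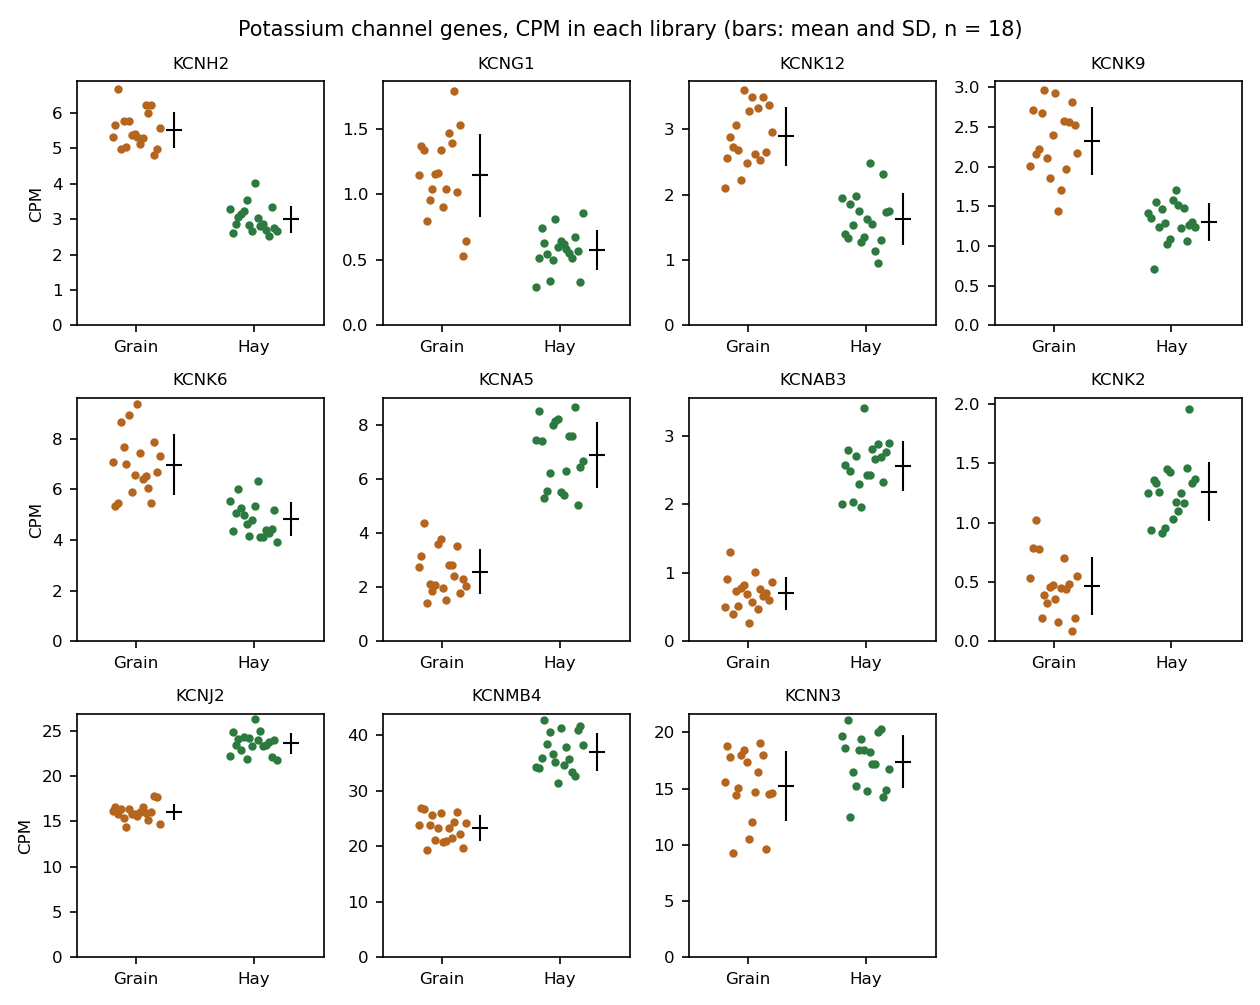
CPM (vertical axis) of 11 potassium channel genes in each of the 18 Grain and 18 Hay libraries (points), with mean and SD at the side. KCNH2 is higher in every Grain library, and KCNA5, KCNAB3, KCNJ2 and KCNMB4 are lower in every Grain library.

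At single time points, lower channel genes outnumbered higher ones each time. From T0 to T20 the numbers called higher were 26, 30, 33, 23, 25 and 22, and the numbers called lower were 45, 33, 34, 45, 49 and 39. In time order the higher shares were 19.4%, 22.4%, 24.6%, 17.2%, 18.7% and 16.4%, against 31.6%, 29.9%, 29.5%, 30.7%, 30.2% and 29.7% of all tested genes. The lower shares in the same order were 33.6%, 24.6%, 25.4%, 33.6%, 36.6% and 29.1%, against 31.2%, 27.9%, 27.2%, 33.6%, 32.5% and 29.2%. Higher calls were thus less frequent than in the background at each time point, whereas lower calls lay within a few points of it. Channel genes had fewer counts than all tested genes, and the shares at single time points were not matched for depth. For the mean comparison, the higher share of all genes rose with depth, from 16.8% under 100 counts to 56.5% over 1000. At all 6 time points 14 channel genes were called higher (10.4%, against 21% of all tested genes) and 23 were called lower (17.2%, against 18%). Among the 14 were CACNA1C, CACNB2, KCNA1, KCNA6, KCNG1, KCNH2, KCNK12, KCNK6, KCNK9, KCNMB1, SCNN1A, TRPM7 and TRPV2.

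The difference between the media depended on time for 29 of the 134 tested channel genes (21.6%, against 32.6% of all tested genes, not matched for depth). The smallest p was that of CACNA2D1 (adjusted p = 2.25e-12). In Grain its 3 libraries held 28.5, 27.8 and 25.4 CPM at T0, 19.7, 19.1 and 18.6 CPM at T8, and 49.0, 48.7 and 43.1 CPM at T12. In Hay they held 43.6, 43.5 and 43.9 CPM at T0, 42.0, 41.2 and 39.7 CPM at T8, and 45.7, 51.8 and 44.7 CPM at T12. The media overlapped at T12 and were well apart at T0 and T8. The log2 difference was -0.68, -1.02, -1.10, -0.01, -0.34 and -0.61 from T0 to T20, and T12 was the only time point at which it was not called.

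KCNB2, a delayed rectifier pore, crossed over (adjusted p = 1.16e-08). Its libraries at T8 held 14.3, 18.1 and 17.6 CPM in Grain, against 13.6, 10.8 and 11.9 CPM in Hay. At T12 they held 11.3, 12.7 and 10.5 CPM in Grain, against 16.8, 17.4 and 17.6 CPM in Hay. Its log2 difference ran 0.11, 0.49, 0.46, -0.58, -0.20 and 0.21 from T0 to T20, with opposite calls at T8 and T12. CACNA1H, a T-type calcium pore, crossed likewise (adjusted p = 7.11e-08): 32.9, 30.0 and 33.7 CPM in Grain at T8 stood against 24.9, 27.1 and 26.2 CPM in Hay, and 24.9, 22.8 and 23.7 CPM in Grain at T12 stood against 31.9, 34.9 and 36.3 CPM in Hay. Its mean over all time points was slightly lower in Grain (log2 -0.10 ± 0.03 SE, adjusted p = 0.00102), a call lost without the T12 libraries (log2 -0.02, adjusted p = 0.492). Channel genes called higher at some and lower at other time points numbered 6 (4.48%, against 3.76% of all tested genes), and the other 4 were CACNA1G, KCNC4, KCNH6 and KCNS3.

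KCNMB4 was lower in Grain at every time point, by a varying amount (adjusted p = 3.1e-06). Its log2 difference was -0.69, -0.46, -0.34, -1.0, -0.83 and -0.68 from T0 to T20, so the gap was widest at T12. TRPM6 behaved alike, with a log2 difference of -0.50 at T8 and -1.58 at T12 (adjusted p = 8.46e-05). At T12 its libraries held 3.31, 3.53 and 2.67 CPM in Grain, against 9.90, 9.23 and 9.30 CPM in Hay. SCN9A was lower in Grain at T0, T4 and T8 (log2 -0.20, -0.18 and -0.20) and was not called at the 3 later time points.

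A 24 h component, fitted as a cosine of fixed 24 h period, was called for 30 channel genes in Grain (22.4%, against 31.8% of all tested genes) and for 12 in Hay (8.96%, against 20.7%). Both shares lay below the background. Channel genes had fewer counts (median mean count 107, against 352), and no share of the 24 h component or of any time difference was matched for depth. The cosines of the media differed for 12 genes (8.96%, against 11.3%): CACNA1H, CACNA2D1, KCNA1, KCNB2, KCNC4, KCND3, KCNIP4, KCNMB4, SCN9A, TRPC1, TRPC4AP and TRPM7. A component in both media was called for 5 genes (3.73%, against 9.21%), namely KCNA5, KCNMB1, SCN3B, KCNN3 and KCNK1. Without a fixed curve, any difference between time points was called for 60 channel genes in Grain (44.8%, against 51.5%) and 29 in Hay (21.6%, against 35.2%). With time points spanning 20 h, a period could not be estimated.

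KCNMB1 had log2 amplitudes of 0.49 ± 0.12 SE in Grain, with a peak at 16.1 h, and 0.68 ± 0.12 SE in Hay, with a peak at 15.8 h (adjusted p = 0.00545 in Grain and 0.000256 in Hay). Its libraries held 6.64, 6.94 and 7.32 CPM at T8 and 18.5, 18.2 and 19.2 CPM at T12 in Grain. In Hay they held 4.30, 3.83 and 4.55 CPM at T8 and 11.8, 10.3 and 12.6 CPM at T12. In both media every T12 library lay above every T8 library. KCNA5 moved the other way between those time points, with 4.36, 3.78 and 3.52 CPM at T8 and 1.42, 1.96 and 1.79 CPM at T12 in Grain, and 7.41, 8.21 and 8.64 CPM at T8 and 5.27, 5.51 and 5.05 CPM at T12 in Hay. Its amplitudes were 0.45 ± 0.08 SE in Grain and 0.31 ± 0.08 SE in Hay, with peaks at 4.9 h and 3.4 h. CACNA2D1 had an amplitude of 0.48 ± 0.07 SE in Grain (peak at 15.3 h, adjusted p = 2.86e-05) and 0.05 ± 0.07 SE in Hay (adjusted p = 0.877), and the difference between the media passed (adjusted p = 0.0109). Peak hours are those of the fitted cosine, counted from T0. For KCNMB1 in both media and CACNA2D1 in Grain the fitted peak fell later than T12, where the group mean was highest. In Grain, KCNK2 had an amplitude of 0.60 ± 0.18 SE (adjusted p = 0.0302), and the call was lost when Grain was fitted alone. In Hay, KCNH4 (0.48 ± 0.13 SE, adjusted p = 0.0282) and KCNK12 (0.33 ± 0.09 SE, adjusted p = 0.0135) were called, and the call of KCNH4 was lost without T12.

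Marker sums of several cell types moved over the same time points. The summed level of smooth muscle markers ran 592 to 663, 440 to 479, 407 to 444, 931 to 959, 720 to 779 and 560 to 599 CPM from T0 to T20 in Grain, and 373 to 379, 288 to 294, 222 to 238, 955 to 991, 705 to 760 and 519 to 536 CPM in Hay. Both media were lowest at T8 and highest at T12. Basal keratinocyte markers had a median sum of 745 CPM at T8 and 1500 CPM at T12 in Grain, and 779 CPM at T8 and 958 CPM at T12 in Hay. Fibroblast markers had median sums of 20200 and 33400 CPM at those time points in Grain, and 18500 and 24300 CPM in Hay. Differentiated keratinocyte markers had 30.9 and 47.3 CPM in Grain, and 42.8 and 50.9 CPM in Hay. The median sums of these lists, too, were lowest at T8 and highest at T12 in both media. Simple epithelium markers followed that order in Grain, with 152 CPM at T8 and 228 CPM at T12, but not in Hay, with 290 and 279 CPM. Other lists fell from T8 to T12 in both media. Glia markers went from 18.4 to 12.4 CPM in Grain and from 44.8 to 26.1 CPM in Hay. Neuron and neuroendocrine markers went from 198 to 171 CPM in Grain and from 223 to 165 CPM in Hay. Endothelial markers went from 9.91 to 6.59 CPM in Grain and from 10.4 to 8.13 CPM in Hay. Immune markers fell in Grain, from 5.21 to 4.2 CPM, but not in Hay, with 6.28 and 6.76 CPM. Mean CACNA2D1 was lowest at T8 and highest at T12 in both media, over a wide range in Grain and a narrow one in Hay. Mean KCNMB1 was highest at T12 in both media and lowest at T8 in Grain, while in Hay T4 and T8 were close. Of the 8 smooth muscle markers 6 were higher in Grain, 1 lower and 1 did not pass, beside 37.9% higher and 43.9% lower among all genes tested. The part of these cell types in the channel results was not tested. Without the T12 libraries, an alternative chosen after seeing the data, KCNMB1 kept amplitudes of 0.47 in Grain and 0.59 in Hay, and CACNA2D1 kept 0.38 in Grain.

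**Figure D5:**
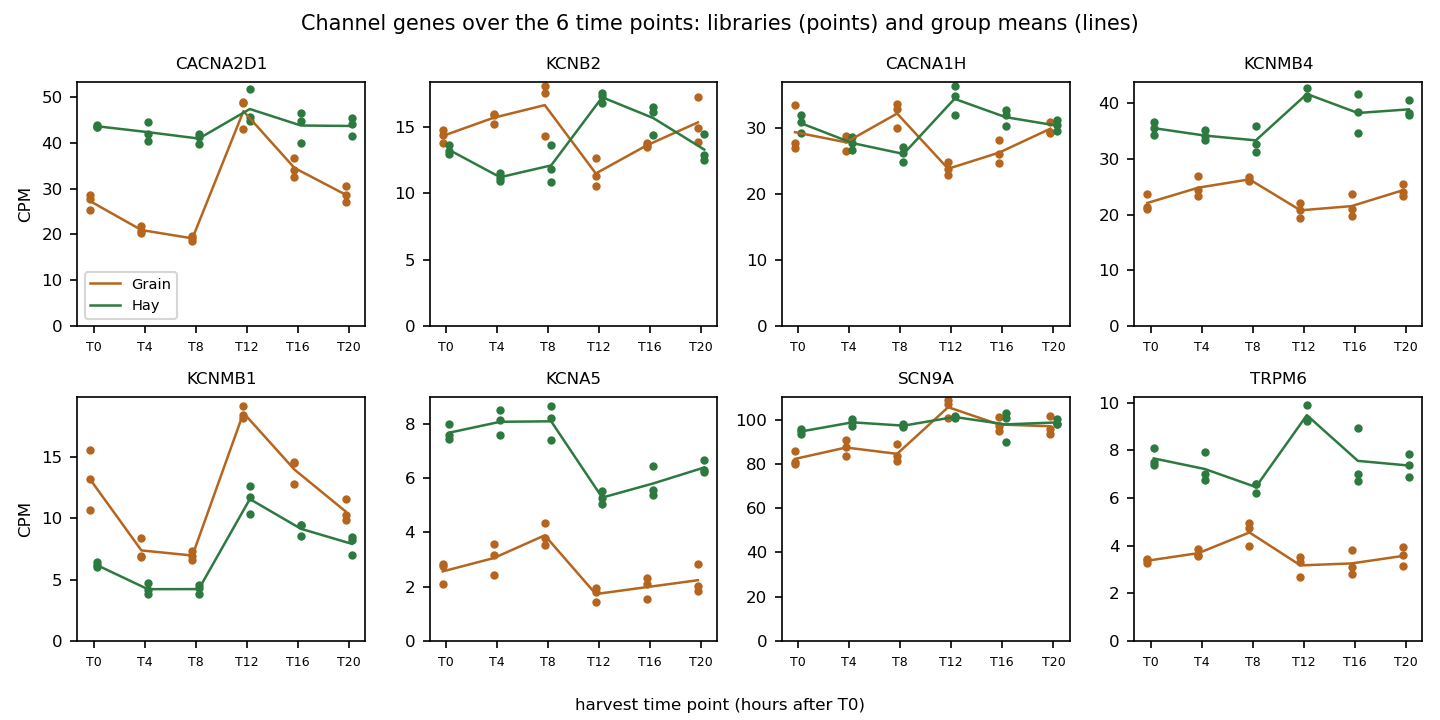
CPM (vertical axis) of 8 channel genes against harvest time point (T0 to T20, horizontal axis) in Grain and Hay, with points for the 3 libraries of a group and lines through group means. CACNA2D1 reaches the Hay level at T12, KCNB2 and CACNA1H cross between T8 and T12, and KCNMB1 and KCNA5 shift in opposite directions at T12 in both media.

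Genes that work with these channels were read in lists chosen with earlier results of these data known. Of all genes tested, 37.9% were higher in Grain and 43.9% lower, so a split near these shares is no trait of a list. Of 11 tested genes of store-operated calcium entry and release from the endoplasmic reticulum, 8 were higher in Grain and 2 lower, with a median log2 fold change of 0.15. STIM2, a sensor of stored calcium, averaged 198 ± 8.05 CPM in Grain and 106 ± 4.84 CPM in Hay (SD, n = 18 each; log2 0.91 ± 0.01 SE, adjusted p = 1.83e-35). SARAF, which restrains that entry, was higher too (log2 0.48), as was the receptor channel ITPR3 (log2 0.64). Among 13 calcium pumps and exchangers, 6 were higher and 5 lower, with SLC8A1, the sodium-calcium exchanger, at 19.5 ± 2.17 CPM in Grain and 33.3 ± 3.11 CPM in Hay (log2 -0.77 ± 0.02 SE, adjusted p = 4.55e-28). Of 8 genes of the mitochondrial uniporter, 4 were higher and 3 lower, and of 10 calcineurin and NFAT genes, 5 were higher and 4 lower. PPP3R1, the regulatory calcineurin subunit, rose (log2 0.67), and RCAN2, a calcineurin regulator, fell (log2 -0.71).

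Other channel types were mixed, beside 37.9% higher and 43.9% lower among all genes tested. Of 24 tested cation channels outside the pattern, 8 were higher and 10 lower. P2RX5, an ATP-gated channel, averaged 14.5 ± 4.97 CPM in Grain and 4.36 ± 0.985 CPM in Hay (log2 1.68 ± 0.04 SE, adjusted p = 6.69e-29), and the stretch-gated PIEZO1 rose as well (log2 0.78). Of 27 chloride and anion channel genes, 10 were higher and 13 lower, with the endosomal CLCN6 higher (log2 1.11) and CLCN4 lower (log2 -0.92). Of 23 tested regulators of channel activity and trafficking, 10 were higher and 13 lower. SGK1, a glucocorticoid-induced kinase that raises epithelial sodium channel activity, averaged 203 ± 55.2 CPM in Grain and 512 ± 27.0 CPM in Hay (log2 -1.38 ± 0.01 SE, adjusted p = 4.8e-42), a direction opposite to that of SCNN1A. KCTD12 was lower as well (log2 -1.41).

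The remaining marker lists were as follows, beside 37.9% higher and 43.9% lower among all genes tested. Of 8 basal keratinocyte markers 5 were higher in Grain and 3 lower. Of 7 tested markers of differentiated keratinocytes 2 were higher and 4 lower, and of 6 of simple epithelium 1 was higher and 5 lower, with KRT8 at a log2 fold change of -1.22. Fibroblast markers divided evenly, 5 higher and 5 lower. Endothelial markers summed to 5.81 to 10.0 CPM in Grain and 6.73 to 10.5 CPM in Hay, with 1 of 6 higher and 4 lower. Immune markers summed to 3.93 to 5.74 CPM in Grain and 5.49 to 7.94 CPM in Hay, with 2 of 7 higher and 5 lower.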

How the data were processed

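RNA was measured in 36 libraries, 3 for each of 2 media at 6 time points, from TRNzol extracts made into TruSeq RNA v2 libraries and sequenced as read pairs, per the labels' protocols. The submitters' processing notes name StringTie 2.1.5, HISAT2 2.2.1 and SAMtools 1.20, with the genome build not given in the sources used here. Whole-number read counts for 35223 genes, not normalised, were deposited by the authors. All 149 channel symbols matched a RefSeq gene table (assembly ARS-UI_Ramb_v3.0), used only for names and overlaps.

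Groups came from the labels. Genes were filtered with filterByExpr (minimum count 10, minimum total 15), which left 22488, and scaled by TMM. edgeR 4.0.16 quasi-likelihood tests (limma 3.58.1, R 4.3.3) used a mean for each of the 12 groups. Grain was set against Hay on average over the 6 time points and at every time point singly, dependence on time was an F test over 5 contrasts, and a cosine and sine of 24 h were fitted in each medium. Adjusted p-values are Benjamini-Hochberg values over all genes tested, two-sided, with a threshold of 0.05, intervals are t intervals on the residual degrees of freedom, and scripts were tested on simulated data. Replicates of a group correlated at 0.981 to 0.987 over genes, and none differed by as little as sampling noise.

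The members, families and lists were chosen with earlier results of these data known, and TRPC5OS was set apart after the file was seen. Genes were named by rule from members with at least 1 CPM: the 8 largest rises and the 8 largest falls whose sign was constant, the 8 with the highest CPM, the 4 with the smallest p for dependence on time, the 4 largest 24 h amplitudes per medium, and the 2 smallest p in each family. This gave 44 genes, of which 21 overlap another gene, and some of the genes so named are not reported here. For lists, up to 3 members with the smallest p were named. Others are named as members of a small family, of a count given or of the marker check, after their values were seen. Alternatives were DESeq2 1.42.0, its size factors, no filter, a replicate block, a medium or time point fitted alone, any difference between time points, each library left out, and T12 left out.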

Additional observations from a re-analysis of the deposited data

Results flagged for a closer look

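Several named genes differed between the media by an amount that itself differed between time points, by the F test of the dependence on time (edgeR, adjusted over all genes tested). Among the calcium channel genes these were CACNA2D1 (adjusted p = 2.25e-12) and CACNA1H (adjusted p = 7.11e-08). Among the potassium channel genes they were KCNB2 (adjusted p = 1.16e-08), KCNMB4 (3.1e-06), KCNMB1 (0.015), KCNH2 (0.0197), KCNN3 (0.0226), KCNJ10 (0.0426) and KCNH7 (0.0453). Among the TRP genes they were TRPM6 (adjusted p = 8.46e-05), TRPV2 (8.61e-05), TRPC1 (0.000961) and TRPM7 (0.0014), with TRPC4AP (0.000265) beside them. Among the sodium channel genes they were SCN9A (adjusted p = 0.000315), SCN1A (0.00204) and SCN8A (0.0117).

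For 8 of these the fitted 24 h course also differed between Grain and Hay. The adjusted p was 0.0013 for KCNB2, 0.0109 for CACNA2D1, 0.0113 for KCNMB4, 0.0156 for TRPC1, 0.0182 for TRPM7, 0.0222 for SCN9A, 0.0314 for CACNA1H and 0.0493 for TRPC4AP. Groups of 3 or 18 libraries were not tested for single outlying libraries.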

How the results depend on the processing

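No called channel gene changed the direction of its mean over the time points with DESeq2, its size factors, no filter, the replicate block, T12 left out or any single library left out. Direction was not compared for the fits of a medium or time point alone. The counts of higher and lower genes for the mean, at single time points, for the dependence on time and for the differing 24 h course stayed within 1.5 times of those given. The 24 h component did not: testing any difference between time points called 60 genes in Grain and 29 in Hay, and fitting the Hay libraries alone called 21 in Hay. Leaving out single libraries gave 35 to 40 higher and 68 to 71 lower for the mean, 24 to 32 for the dependence on time, and 25 to 34 in Grain, 7 to 14 in Hay and 9 to 13 differing for the 24 h component, with the 7 in Hay reached without replicate 3 at T4. Without T12 there were 39 higher and 65 lower, and 23 depended on time. KCNB2 (log2 0.08, adjusted p = 0.0383) lost its mean call with DESeq2 (0.05) and in 14 of the fits without a library, and TRPV3 gained one in 5 of them. Replicate numbers did not pair the libraries: none of 18 same-number pairs correlated above 0.1 in their deviations, and 13 of 36 libraries correlated best with their own number. With the replicate block, 40 genes were higher and 69 lower, and only KCNJ1 lost its call. The median shift of all genes was -0.07, -0.10 with DESeq2 and -0.14 without the filter. Depth limits the 33 low-count genes.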
